A study of Mus musculus with 6 samples.

Results

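A set of 10 genes that are switched on by fibroblast growth factor (FGF) signalling, and that in turn shape it, was followed in the pharyngeal region of mouse embryos with and without *Pax9*. They were chosen by gene symbol as *Etv1*, *Etv4*, *Etv5*, *Spry1*, *Spry2*, *Spry4*, *Dusp6*, *Spred1*, *Spred2* and *Il17rd*, and all 10 were among the 14647 genes of the expression table. The data were RNA-seq libraries from 3 *Pax9*-null (*Pax9*-/-) and 3 wild-type embryos at embryonic day 9.5, each library from 1 embryo. The wild-type embryos were stage-matched, no group was treated, and the loss of *Pax9* affected the whole embryo. The tissue held endoderm, ectoderm, mesoderm, neural crest, vessels and blood together, so that for every gene fewer cells of a type and less RNA per cell cannot be told apart.

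FGF ligands bind receptor tyrosine kinases, which activate Ras, the kinases Raf and MEK, and then ERK. Active ERK raises transcription of the Pea3 factors *Etv1*, *Etv4* and *Etv5*, and also of inhibitors of the pathway, so that these transcripts are widely read as a sign of FGF activity. The inhibitors act at different steps. *Dusp6* encodes a phosphatase that removes phosphate from ERK in the cytoplasm, the Sprouty and Spred proteins act at the level of Ras and Raf, and *Il17rd*, also called Sef, is a membrane protein that dampens FGF receptor and ERK signals. In the pharynx FGF signals between endoderm, ectoderm, mesoderm and neural crest are needed for the arches and their arteries. The comparison asks whether this group of transcripts differed between *Pax9*-null and wild-type embryos.

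The members did not move as a block. *Dusp6* and *Spred1* rose in *Pax9*-null embryos, to 118% and 121% of the wild-type level. *Etv4* and *Il17rd* fell, to 68.0% and 67.9%. The other 6 members did not pass the test. A gene was called where its adjusted *P* was at most 0.1 in limma, a linear model that shares the variance between genes, with *P* values adjusted by the Benjamini-Hochberg method over 13547 genes whose mean reached 0.5 RPKM, a read count scaled to gene length and library size. Called members thus numbered 4 of 10, against 26.7% of all tested genes. The share called higher was 14.7% of tested genes (1990) and the share called lower 12% (1621). Quantile normalization turned this balance over all genes to 1433 higher and 1742 lower, and median centring gave 2170 and 1403. The 3 *Pax9*-null libraries lay wholly above or below the 3 wild-type libraries for the same 4 members, against 41.9% of tested genes (21.8% higher and 20.1% lower). Neither share was far from that of all genes. Of the members, 7 had a lower mean in *Pax9*-null embryos, and their median log2 difference was −0.19. Of all tested genes 50.2% were lower, with a median of −0.0012. None of the 4 calls was made in more than 2 of the 6 fits that left out 1 library.

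**Figure D1:**
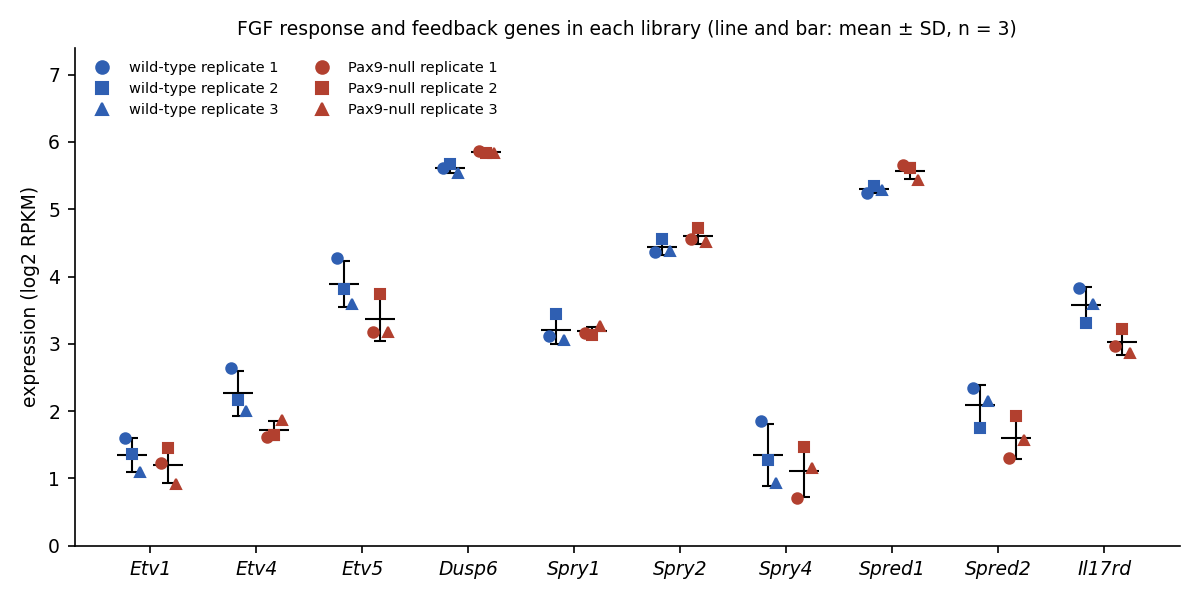
Expression of the 10 members in log2 RPKM (vertical axis) in each library, wild-type in blue and *Pax9*-null in red, with symbols for the replicate number and a line and bar for the mean ± SD of 3 libraries. *Dusp6* and *Spred1* have every *Pax9*-null point above every wild-type point, *Etv4* and *Il17rd* have every one below, and the other 6 genes overlap.

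The promoters of 3 of the 4 called members, *Dusp6*, *Spred1* and *Il17rd*, are shown so that the letters before their start sites can be compared for sites of the ETS factors that ERK acts on. A RefSeq promoter of build GRCm38.p6 was found for 8 of the members, all but *Etv4* and *Spry4*. The 250 bases before the start are printed 5′ to 3′ on the strand of the gene for *Dusp6* (chr10:99262981-99263230, plus strand), *Spred1* (chr2:117120821-117121070, plus strand) and *Il17rd* (chr14:27038751-27039000, plus strand). Capitals mark the letters CGGAAG, or CTTCCG on the other strand, a site that many ETS factors such as the Etv proteins bind. Shorter forms of the site, such as GGAA alone, were not marked.
Dusp6: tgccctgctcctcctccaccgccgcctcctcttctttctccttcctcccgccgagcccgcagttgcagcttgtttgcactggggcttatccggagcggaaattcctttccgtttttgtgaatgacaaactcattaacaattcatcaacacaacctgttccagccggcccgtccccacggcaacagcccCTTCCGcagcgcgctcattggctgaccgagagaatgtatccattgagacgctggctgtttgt
Spred1: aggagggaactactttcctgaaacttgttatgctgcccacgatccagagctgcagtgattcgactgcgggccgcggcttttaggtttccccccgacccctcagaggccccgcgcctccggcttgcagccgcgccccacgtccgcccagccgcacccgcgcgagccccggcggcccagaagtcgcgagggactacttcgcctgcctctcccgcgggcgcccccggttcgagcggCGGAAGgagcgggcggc
Il17rd: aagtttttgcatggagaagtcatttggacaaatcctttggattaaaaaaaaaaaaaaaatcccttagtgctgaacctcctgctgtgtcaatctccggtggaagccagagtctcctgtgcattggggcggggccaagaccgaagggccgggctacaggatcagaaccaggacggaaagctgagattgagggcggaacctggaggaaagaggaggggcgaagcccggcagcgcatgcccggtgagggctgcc
The marked ETS site stood once before *Dusp6*, 62 bases from the start, once before *Spred1*, 17 bases from it, and not in this window of *Il17rd*. The unmarked GGAA stands in the windows of *Il17rd*, *Dusp6* and *Spred1* as well. Of the 8 members 3 held the marked site, the other being *Spred2* at 43 bases from its start. Of all 32851 such windows 13.6% held it. The letters TGANTCA of AP-1 stood in 6.75% of all windows and TGACGTCA, the cyclic AMP response element, in 1.55%, and neither stood before any of these 8 members. The motif matches are a description of letters.

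Levels are given in log2 RPKM, which corrects for gene length, so that members can be set beside each other. *Dusp6* was the most abundant, with a mean over the 6 libraries of 5.72 (52.9 RPKM as a geometric mean), followed by *Spred1* at 5.43 (43.2 RPKM). The ranges of these neighbours overlapped. *Spry2* came next at 4.52 (22.9 RPKM) and overlapped neither neighbour. *Etv5* (3.63), *Il17rd* (3.30) and *Spry1* (3.19) formed a middle group with overlapping ranges. Below them, without overlap, lay *Etv4* (1.99), *Spred2* (1.84), *Etv1* (1.27) and *Spry4* (1.23), which overlapped in turn. *Spry4*, at 2.34 RPKM, rested on 86 to 209 reads per library, and *Dusp6* on 1632 to 1893. Both of the members that rose were thus the most abundant ones, with small spreads.

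*Etv4* (ENSMUSG00000017724, chromosome 11 of GRCm38 from 101769742 to 101785371) is a Pea3 transcription factor and a target of ERK. Its log2 RPKM was 1.62, 1.64 and 1.87 in *Pax9*-null replicates 1 to 3 and 2.64, 2.17 and 1.99 in wild-type replicates 1 to 3. All *Pax9*-null values were lower, but the gap between *Pax9*-null replicate 3 and wild-type replicate 3 was small beside the range of the wild-type values. The log2 difference was −0.56 (standard error 0.19, adjusted *P*=0.0837 by limma). Each library held 110 to 245 reads of it. Without wild-type replicate 1, the highest library, it was −0.37 (adjusted *P*=0.169), and the only library whose removal kept the call was wild-type replicate 3 (0.0784). A two-sided exact permutation test gave *P*=0.1, the smallest that 3 against 3 can give.

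*Etv5* (ENSMUSG00000013089, chromosome 16 from 22381309 to 22439719), the most abundant Pea3 factor here, stood at 3.18, 3.74 and 3.17 in *Pax9*-null embryos and 4.27, 3.81 and 3.59 in wild-type embryos. *Pax9*-null replicate 2 lay above wild-type replicate 3, so that the genotypes overlapped. The log2 difference of −0.53 (95% interval −1.02 to −0.03) was close in size to that of *Etv4* but did not pass the threshold (adjusted *P*=0.126 by limma). It passed without *Pax9*-null replicate 2 (0.0719) and without wild-type replicate 3 (0.0921). Reads ranged from 430 to 1004, and the spread within genotypes was 5.93 times what counting error alone gives.

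*Etv1* (ENSMUSG00000004151, chromosome 12 from 38779380 to 38870484), the last of the Pea3 factors, stood at 1.23, 1.45 and 0.92 in *Pax9*-null and 1.60, 1.36 and 1.09 in wild-type embryos. The genotypes overlapped widely. Its log2 difference was −0.15 (95% interval −0.62 to 0.32, adjusted *P*=0.628 by limma). The interval spans the difference measured for *Etv4*. All 3 Pea3 factors had lower means in *Pax9*-null embryos and 1 of them was called.

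*Dusp6* (ENSMUSG00000019960, chromosome 10 from 99263231 to 99267489), the ERK phosphatase, stood at 5.87, 5.83 and 5.83 in *Pax9*-null replicates 1 to 3 and at 5.61, 5.67 and 5.54 in wild-type replicates 1 to 3. The *Pax9*-null values were tightly grouped (SD 0.023) and all lay above the wild-type values. The log2 difference was 0.24 (standard error 0.075, adjusted *P*=0.0735 by limma, exact permutation *P*=0.1). The call held only without wild-type replicate 2 (0.0811) among the fits that left out 1 library. In the others the adjusted *P* ran up to 0.226 while the difference stayed between 0.20 and 0.25. Under quantile normalization, which gives all libraries the same distribution of values, the difference was 0.11 and was not called (0.315).

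*Dusp6* and *Etv4* are both targets of ERK and were called in opposite directions. Their difference within a library does not change when a library is scaled by a constant. *Dusp6* exceeded *Etv4* by 4.25, 4.19 and 3.95 (log2) in *Pax9*-null replicates 1 to 3 and by 2.97, 3.50 and 3.54 in wild-type replicates 1 to 3. The means were 4.13 ± 0.16 (SD, n = 3) and 3.34 ± 0.32 (SD, n = 3). The genotypes could not overlap here, since *Dusp6* alone lay wholly higher and *Etv4* alone wholly lower in *Pax9*-null embryos. The lack of overlap thus adds nothing to the 2 calls. The pair was chosen after its values were seen, so that no test is given. The gap was smaller, in the same direction, in several alternative fits. With the trends in length and GC content taken out, the genotype difference was 0.17 for *Dusp6* and −0.30 for *Etv4*. Under quantile normalization these differences were 0.11 and −0.54, and without wild-type replicate 1 they were 0.24 and −0.37. The cause of the gap was not tested.

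None of the 3 Sprouty genes, inhibitors of receptor tyrosine kinase signalling, was called by limma, and none had an unadjusted *P* below 0.05. *Spry2* (ENSMUSG00000022114, chromosome 14 from 105891947 to 105896819) stood at 4.56, 4.72 and 4.51 in *Pax9*-null and 4.36, 4.56 and 4.38 in wild-type embryos. Its log2 difference was 0.16 (95% interval −0.06 to 0.39, adjusted *P*=0.267 by limma), with 1 wild-type library inside the *Pax9*-null range. *Spry1* (ENSMUSG00000037211, chromosome 3 from 37639947 to 37644598) stood at 3.17, 3.13 and 3.26 against 3.12, 3.44 and 3.05, with a log2 difference of −0.02 (95% interval −0.30 to 0.27, adjusted *P*=0.933 by limma). Of its 2906 exonic bases, 710 are shared with the exons of a gene on the other strand, which counting without strand cannot tell apart.

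*Spry4* (ENSMUSG00000024427) was the least abundant and most variable member. It stood at 0.70, 1.47 and 1.15 in *Pax9*-null and 1.85, 1.27 and 0.92 in wild-type embryos, and the genotypes overlapped. Its log2 difference of −0.24 had a 95% interval from −0.90 to 0.42 (adjusted *P*=0.58 by limma). Without wild-type replicate 1 the difference was 0.012. The interval holds both 0 and the −0.56 measured for *Etv4*.

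**Figure D2:**
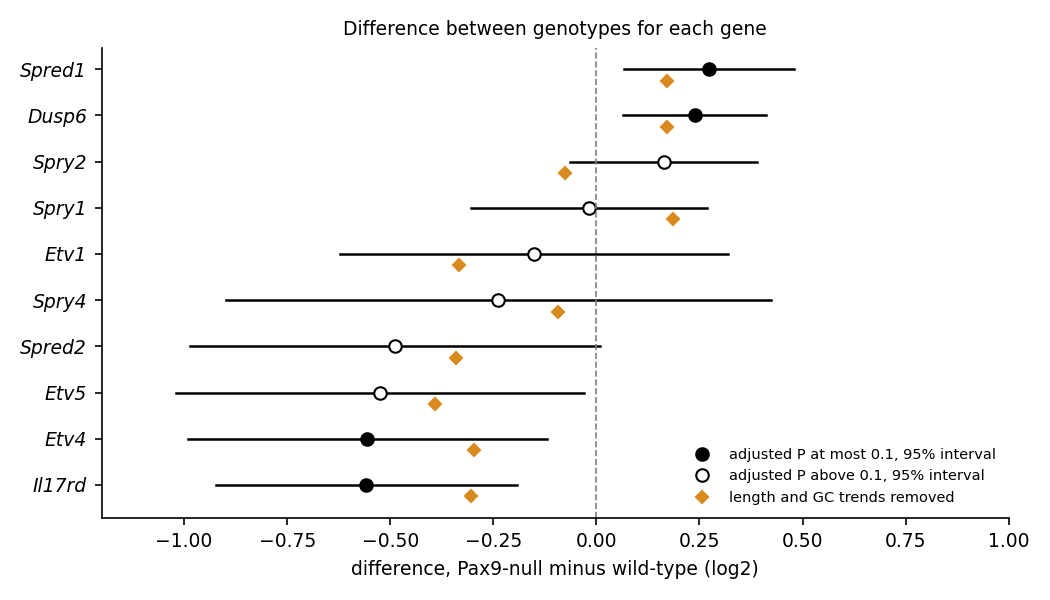
Log2 difference of each member, *Pax9*-null minus wild-type (horizontal axis), with circles for the fit to the values as deposited, filled where the adjusted *P* was at most 0.1, lines for the 95% interval, and diamonds for the fit after removal of the trends with gene length and GC content. *Spred1* and *Dusp6* lie to the right of 0 and *Etv4* and *Il17rd* to the left, and in each of these 4 the diamond lies nearer to 0.

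The Spred genes are Sprouty-related inhibitors that keep Raf from being activated, and of the pair *Spred1* was called. *Spred1* (ENSMUSG00000027351, chromosome 2 from 117121374 to 117182279) stood at 5.66, 5.62 and 5.43 in *Pax9*-null replicates 1 to 3 and 5.25, 5.35 and 5.29 in wild-type replicates 1 to 3. All *Pax9*-null values were higher, with *Pax9*-null replicate 3 the closest to the wild-type range. The log2 difference was 0.27 (standard error 0.088, adjusted *P*=0.0774 by limma, exact permutation *P*=0.1), from 3268 to 3967 reads. The call held only without wild-type replicate 2 (0.096) among the fits that left out 1 library, and in the others the adjusted *P* ran from 0.128 to 0.246. Quantile normalization gave 0.17 and no call (0.203).

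*Spred2* (ENSMUSG00000045671, chromosome 11 from 19924375 to 20024026) stood at 1.30, 1.92 and 1.57 in *Pax9*-null and 2.34, 1.75 and 2.15 in wild-type embryos. *Pax9*-null replicate 2 lay above wild-type replicate 2. The log2 difference was −0.49 (95% interval −0.99 to 0.0087, adjusted *P*=0.148 by limma), from 131 to 297 reads. It passed the threshold without either of these libraries, with an adjusted *P* of 0.0969 and 0.0834.

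*Il17rd* (ENSMUSG00000040717, chromosome 14 from 27038941 to 27107286) had the smallest adjusted *P* of the members. Its log2 RPKM was 2.97, 3.22 and 2.87 in *Pax9*-null replicates 1 to 3 and 3.83, 3.30 and 3.60 in wild-type replicates 1 to 3. All *Pax9*-null values were lower, with *Pax9*-null replicate 2 and wild-type replicate 2 nearly meeting. The log2 difference was −0.56 (standard error 0.16, adjusted *P*=0.0588 by limma, exact permutation *P*=0.1), from 703 to 1488 reads. The call held without *Pax9*-null replicate 2 (0.0638) or wild-type replicate 2 (0.0394). Without the other libraries in turn the adjusted *P* lay between 0.107 and 0.198.

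**Figure D3:**
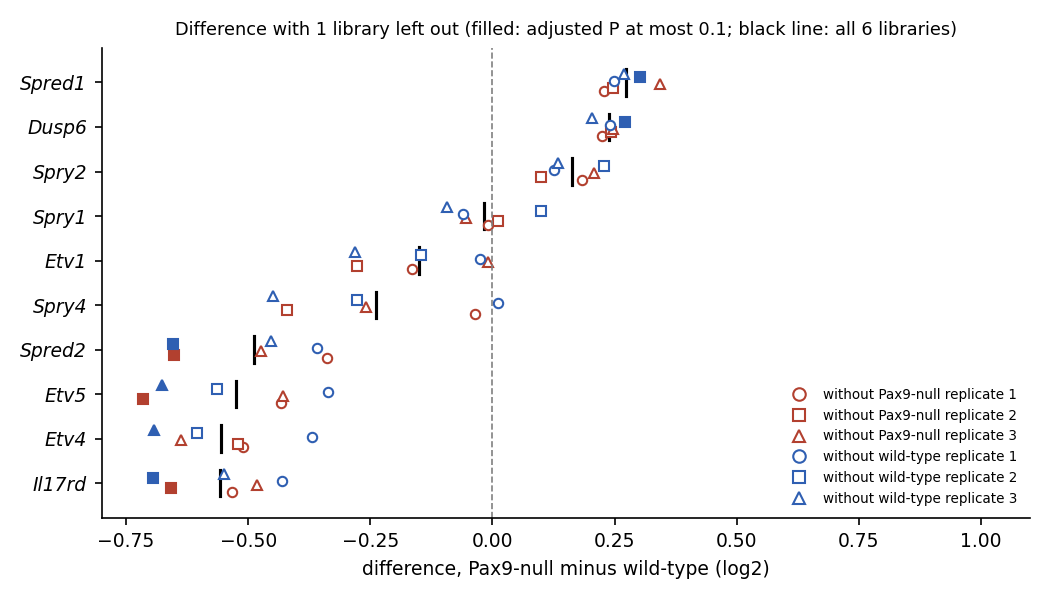
Log2 difference of each member, *Pax9*-null minus wild-type (horizontal axis), with each library left out in turn, red symbols for a *Pax9*-null library and blue symbols for a wild-type library, filled where the adjusted *P* was at most 0.1, and a black line for all 6 libraries. Without wild-type replicate 1, the blue circles of *Il17rd*, *Etv4*, *Etv5*, *Spred2* and *Spry4* lie nearer to 0 than the black line, and that of *Spry4* just past it.

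Single libraries weighed on several members at once. *Etv1*, *Etv4*, *Etv5*, *Spry4*, *Spred2* and *Il17rd* were all highest in wild-type replicate 1, which makes 6 of 10, where 29.9% of tested genes had their highest value in that library. Without it 0 members were called by limma, with 4 at an unadjusted *P* below 0.05, while 13.3% of tested genes were called. Without *Pax9*-null replicate 1 or 3 the called members were again 0, with 2 and 4 at an unadjusted *P* below 0.05, and 2.22% and 1.29% of tested genes were called. Without *Pax9*-null replicate 2 the called members were *Il17rd*, *Etv5* and *Spred2*, all lower, with 22.6% of tested genes called. Without wild-type replicate 3 they were *Etv4* and *Etv5*, both lower, with 15.8% of tested genes called. Without wild-type replicate 2 they were *Dusp6* and *Spred1*, higher, and *Il17rd* and *Spred2*, lower, with 26.4% of tested genes called. Under quantile normalization the calls were 0 higher and 2 lower (*Etv4* and *Il17rd*), against 2 higher and 2 lower in the values as deposited, with 23.4% of tested genes called and the balance of all genes shifted to lower as given above. In each of these alternatives *Dusp6* and *Spred1* stayed above 0, and *Etv4*, *Etv5*, *Spred2* and *Il17rd* stayed below 0.

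The libraries also differed in the summed RNA of cell type markers, sums in which the most abundant markers weigh most. *Pax9* itself stood at −0.43, −0.64 and −0.59 in *Pax9*-null and 0.63, 0.72 and 0.96 in wild-type embryos, which follows the labels. The summed level of the 7 cardiomyocyte markers was 69.5 RPKM in wild-type replicate 3 and 1030 to 1379 in the other 5 libraries, and none was called by limma, also at an unadjusted *P* below 0.05. The 7 endothelial markers summed to 103 RPKM in wild-type replicate 1 and 56.8 to 71.0 in the others, with 2 of 7 called lower in *Pax9*-null embryos. The 7 erythroid markers summed to 4886 and 4446 RPKM in *Pax9*-null replicates 1 and 3 and to 2388 to 2635 in the other libraries, with 2 of 7 called higher. The 9 pharyngeal endoderm markers summed to 169 to 227 RPKM in *Pax9*-null and 140 to 198 in wild-type embryos, with *Pax9* the only called marker. These sums follow the abundant *Krt18*, *Krt8* and *Epcam*, whose log2 differences of 0.18, 0.18 and 0.12 were not called. *Pax1* (−0.74, adjusted *P*=0.101 by limma) and *Cdh1* (−0.53, 0.134) had lower means, and *Pax1* did not overlap between genotypes. Of the 9 markers 4 had a lower mean in *Pax9*-null embryos, and 3 had an unadjusted *P* below 0.05. The 9 neural crest markers summed to 462 to 478 and 420 to 553 RPKM, with 1 called in each direction, and the 7 pharyngeal mesoderm markers to 29.7 to 37.8 and 31.4 to 33.6 RPKM, with 1 called higher and 2 lower. The 3 measured smooth muscle markers summed to 50.5 RPKM in wild-type replicate 3 and to 217 to 289 in the others, and none was called or had an unadjusted *P* below 0.05. The 7 neural tube markers summed to 143 RPKM in wild-type replicate 3 and to 59.3 to 86.2 in the others, with 1 called lower. Of the 5 hepatocyte or visceral endoderm markers 1 had a value, at most 0.427 RPKM. The part of these cell types in the differences of the members was not tested.

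Differences between the genotypes followed gene length and GC content across all genes, and the members were read against that trend. In deciles of the tested genes the median log2 difference fell from 0.30 at the lowest GC content to −0.23 at the highest, and from 0.54 for the shortest to −0.22 for the longest genes. *Spred1*, with a GC content of 41.2%, lay in a GC decile whose median was 0.20, near its own 0.27, and in a length decile whose median was −0.11. *Etv4*, at 58.7%, lay in the highest GC decile, whose median was −0.23 against its own −0.56, and in a length decile with a median of 0.02. *Dusp6* (49.0%) lay in a GC decile with a median of −0.01 and a length decile with a median of 0.02, both well below its own 0.24. *Il17rd*, with a length of 8220 bases and a GC content of 50.1%, lay in deciles with medians of −0.12 and −0.05. *Etv1* had the lowest GC content of the members (39.8%). Its log2 difference of −0.15 lay below the 0.30 of its GC decile and near the −0.11 of its length decile. That decile rests on a recovered length of 5889 bases, 1 of 3 that gave whole reads. The GENCODE M21 length of 13296 bases lies in the longest decile, with a median of −0.22.

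When smooth trends with length and GC content were taken out of every library before the fit, 0 members were called by limma, with 3 at an unadjusted *P* below 0.05, and 3.96% of tested genes were called. *Dusp6* then differed by 0.17 (adjusted *P*=0.167), *Spred1* by 0.17 (0.223), *Il17rd* by −0.30 (0.167) and *Etv4* by −0.30 (0.367). These 4 members kept their sign, at smaller sizes. *Etv5* differed by −0.39 (0.274), *Spred2* by −0.34 (0.33) and *Etv1* by −0.33 (0.344). The signs of *Spry1* and *Spry2* turned, to 0.19 and −0.08.

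**Figure D4:**
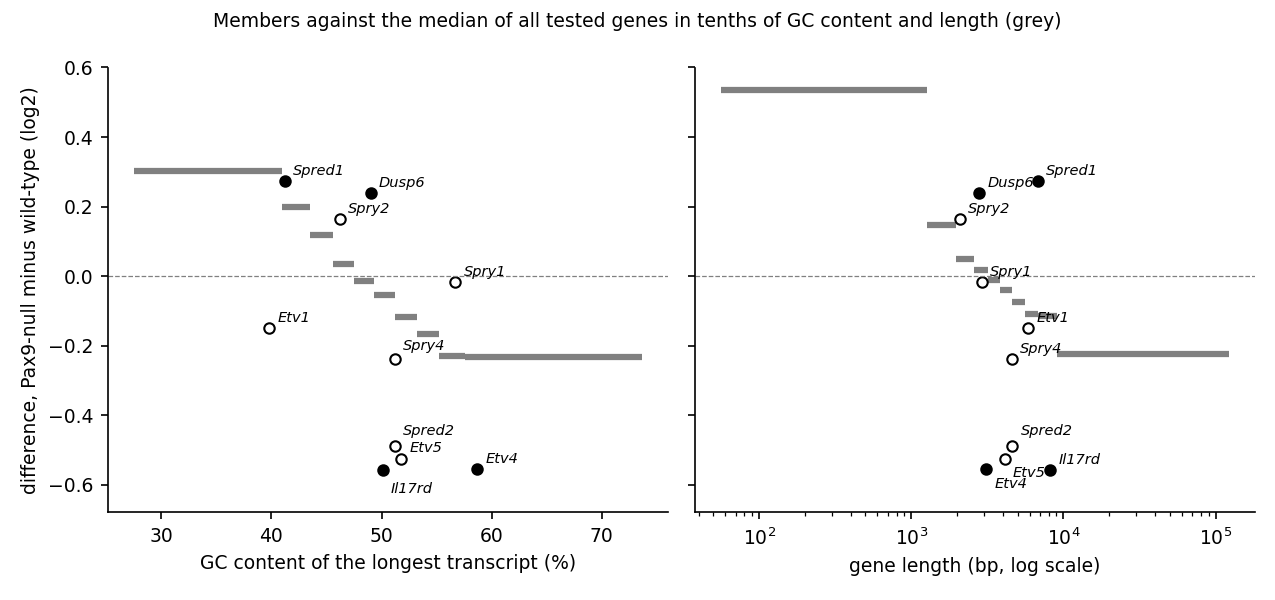
Log2 difference of the members, *Pax9*-null minus wild-type (vertical axis), against the GC content of the longest transcript and the gene length recovered from the values (horizontal axes), filled where called, with grey bars for the median of all tested genes in each decile. The bars step down from 0.30 to −0.23 with GC content and from 0.54 to −0.22 with length, *Spred1* lies nearer to its GC bar than to its length bar, and *Dusp6* lies above and *Etv4* and *Il17rd* below both of theirs.

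The rest of the pathway was read from lists of genes by role. Of 22 FGF family genes 10 were tested, and 0 were called by limma, also at an unadjusted *P* below 0.05, with a median log2 difference of −0.05. *Fgf12*, *Fgf13* and *Fgf14* among them are usually classed as intracellular factors and not as receptor ligands. *Fgf10*, a ligand made by mesoderm of the pharynx and heart field, stood at 0.56, 1.17 and 0.46 in *Pax9*-null and 1.52, 0.84 and 0.78 in wild-type embryos, with a difference of −0.31 (standard error 0.27, adjusted *P*=0.441 by limma). *Fgf5* differed by −0.33 (standard error 0.27, adjusted *P*=0.403 by limma) and had 19 to 44 reads. *Fgf8*, which is made by pharyngeal ectoderm and endoderm, ranged from −0.01 to 1.49 in *Pax9*-null and 0.47 to 0.92 in wild-type embryos, from 15 to 44 reads. Depth limits what can be said of most of these genes.

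Of the 10 receptor and co-receptor genes 6 were tested. *Fgfr1*, the FGF receptor of mesenchyme, was lower in *Pax9*-null embryos and was the only one called. It stood at 2.32, 2.61 and 2.44 against 3.08, 2.79 and 3.18, a log2 difference of −0.56 (standard error 0.14, adjusted *P*=0.0474 by limma). Once the trends with length and GC content were taken out, described above, the difference was −0.07 (0.766). *Fgfrl1*, a receptor without a kinase domain, had all *Pax9*-null values below all wild-type values but was not called (−0.23, standard error 0.10, adjusted *P*=0.162 by limma).

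Of the 26 genes of the Ras-ERK cascade 25 were tested, 1 was called higher and 2 lower, and their median difference was −0.09. *Ptpn11*, which encodes the phosphatase Shp2 that passes receptor signals on to Ras, fell by 0.30 (adjusted *P*=0.072 by limma), and *Rps6ka1*, a kinase activated by ERK, fell by 0.29 (0.0986). Without the length and GC trends *Ptpn11* differed by −0.06 and *Rps6ka1* by 0.03. Of 16 tested genes among 19 other ERK-responsive and feedback genes 0 were called by limma, also at an unadjusted *P* below 0.05, with a median of 0.08. They include *Spred3* (−0.50, adjusted *P*=0.146), which had all *Pax9*-null values below all wild-type values, and *Egr2* (0.77, 0.212), from 12 to 44 reads. Over all 73 tested genes of these lists and of the other ETS factors 6 were called, against 26.7% of all tested genes. Once both trends were taken out 0 were called by limma, against 3.96% of all tested genes, and 4 had an unadjusted *P* below 0.05.

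**Figure D5:**
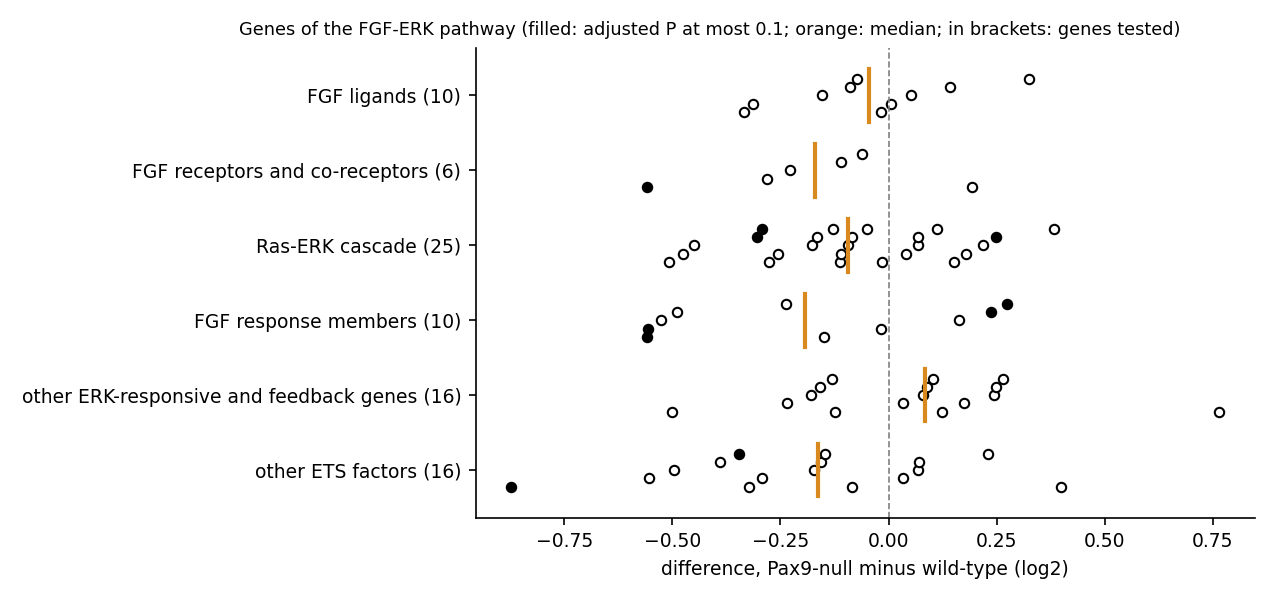
Log2 difference of each tested gene, *Pax9*-null minus wild-type (horizontal axis), in lists of the FGF-ERK pathway, filled where the adjusted *P* was at most 0.1, with an orange line for the median of each list. The lists labelled FGF ligands and other ERK-responsive and feedback genes hold no filled point, and the members hold 2 on each side of 0.

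The genes whose pattern over the 6 libraries was most like the mean of *Etv4*, *Etv5*, *Spry4* and *Dusp6*, each centred on its own mean, were *Dysf*, *Rrp1b*, *Rnf213*, *Ipo5* and *Kif23*. Pearson's r over the 6 libraries was 0.99 for each, and the genes were the highest of all tested genes by design. None of the 5 was called by limma, with adjusted *P* values between 0.244 and 0.514. All 5 were highest in wild-type replicate 1, the library in which *Etv4*, *Etv5* and *Spry4* were highest. *Dusp6* did not share this pattern, with r over the 6 libraries of −0.72 with *Etv4*, −0.61 with *Etv5* and −0.26 with *Spry4*. The mean thus chiefly follows *Etv4*, *Etv5* and *Spry4*, whose pairwise r lay between 0.68 and 0.85.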

How the data were processed

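RNA of the dissected pharyngeal region was sequenced from 6 embryos. Labels and paper differ on the protocol (sorted cells and Smart-seq2 against dissected tissue and TruSeq), and the paper was followed. The authors trimmed reads with Trimmomatic (0.32 per the submitters' processing notes), kept unique and non-redundant reads, sub-sampled towards the smallest library, used STAR to align to GRCm38, counted on Ensembl genes with featureCounts at its default settings, and tested with limma and voom. The values deposited by the authors are log2 RPKM (−7.15 to 11.02), used as deposited. How counts became these log2 values is not given in the sources used here. Reads were recovered from the values with a prior count of 0.5 read. At GENCODE M21 gene lengths 82.7% of the values were whole within 0.05 read, and 14645 of 14647 genes were whole after a search of lengths. For *Etv1* and *Spry4* 3 lengths gave whole reads, and the length closest to whole reads was used, so that their read counts are less certain. The reads on listed genes were 11672990 to 11879685 in *Pax9*-null and 12113065 to 12699922 in wild-type libraries. Read counts show depth only. Nothing says whether a p-value covers litters, so that it measures the spread between these embryos.

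Genotypes were compared in R 4.3.3 with limma 3.58.1 (variance trend on the mean, two-sided, no covariates) over genes whose mean reached 0.5 RPKM, with the study's threshold of 0.1. The fit was tested on simulated data. Trends with length and GC content were fitted per library with mgcv 1.9.3. The members and all lists were chosen with earlier results of these data known. All members are named, with *Pax9*. In each list up to 6 called genes are named, or the 2 with the smallest adjusted *P* where fewer are called, and the 5 genes closest in pattern. *Fgf8* was named after its values were seen. A called gene of the Ras-ERK list is not reported here by name. The alternatives were a pseudocount of 0.1 or 1 RPKM, no filter or a mean of at least 5 RPKM, median centring, quantile normalization, the replicate number as a term, no variance trend, library weights, removed length and GC trends, a threshold of 0.05 and each library left out. A count test was not run, since the table holds log2 values.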

Additional observations from a re-analysis of the deposited data

How the results depend on the processing

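The count of called genes over the whole table was 3611, and it was 1377 with a replicate block, 535 with the length and GC trends removed, 1335 at a threshold of 0.05, and 175 to 3578 with 1 library left out. Of the members 4 were called, against 2 after quantile normalization, 1 by eBayes without a trend, and 0 with the replicate block, with the trends removed or at a threshold of 0.05, where 4, 3 and 5 had an unadjusted *P* below 0.05 by limma. Of all tested genes 20.8% were called by eBayes without a trend, 10.2% with the replicate block and 9.85% at a threshold of 0.05. With 1 library left out the members called were 0 to 4. Of the 73 tested genes of the pathway lists, a count added after seeing the data, 6 were called (1 higher). With library weights 9 were called (4 higher), against 32.3% of all tested genes. A mean of at least 5 RPKM left 44 of these genes, of which 8 were called (3 higher), against 34.5% of all genes then tested. By eBayes without a trend 3 were called, and 1 at a threshold of 0.05. The count was 0 with the replicate block (7 at an unadjusted *P* below 0.05 by limma) or with the trends removed, and 0 to 4 with 1 library left out. The replicate numbers of the titles only name embryos: deviations of same-numbered libraries from their genotype means had correlations of −0.02, −0.17 and 0.26 across genes, so that the block rests on the numbers alone. The sign of *Spry1* (−0.02) turned with median centring (0.018), quantile normalization (0.0044), removed trends (0.19) and without *Pax9*-null replicate 2 (0.011) or wild-type replicate 2 (0.099), and ran from −0.0922 to 0.0989 with 1 library left out. The sign of *Spry2* turned with removed trends (−0.0765) and that of *Spry4* without wild-type replicate 1 (0.012), where its range with 1 library left out was −0.4492 to 0.0123. The other 7 members kept their sign in every alternative run. The median over the members was −0.19, and with a mean of at least 5 RPKM, which left 6 members, it was 0.07. It was −0.0919 with library weights, −0.0421 and −0.3648 without wild-type replicates 1 and 3, and −0.0995 and −0.3484 without *Pax9*-null replicates 1 and 2. Causes of these changes were not tested. Counting error was largest for *Spry4*, *Etv4*, *Etv1* and *Spred2*, at 0.10 to 0.125 (log2) per library. Their spread within genotypes was 2.21 to 3.42 times that error.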

Other observations

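ETS factors outside the Pea3 group were read as a list of 21 genes, of which 16 were tested, with a median log2 difference of −0.16. *Elf3*, an ETS factor of epithelia, was lower in *Pax9*-null embryos. It stood at −0.93, −0.55 and −0.66 against 0.53, 0.33 and −0.37, a log2 difference of −0.87 (standard error 0.28, adjusted *P*=0.0778 by limma). It had 13 to 40 reads. *Etv6*, an ETS repressor, stood at 2.93, 3.20 and 2.97 against 3.56, 3.27 and 3.31, a difference of −0.35 (standard error 0.12, adjusted *P*=0.0938 by limma). Neither passed once trends with length and GC content were taken out. No other gene of the list was called, and 3 of the 16 had an unadjusted *P* below 0.05.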
